A study of Mus musculus with 4 samples.

Results

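The genes described here are 7 Kruppel-like factor genes of mouse: Klf2, Klf3, Klf4, Klf5, Klf6, Klf8 and Klf10. They were taken from a fixed list of names among 21887 protein-coding genes, and every Slug or Snail peak in each gene or within 50 kb of either of its ends was collected. Positions are on mm10. The windows held 23 of the 41612 Slug peaks and 27 of the 28375 Snail peaks. The study set Slug (gene Snai2), mapped by chromatin immunoprecipitation and sequencing (ChIP-seq) in the epithelial, high-Slug line pBl.1G, against Snail (gene Snai1), mapped in the mesenchymal, high-Snail line pBl.3G. Both are breast cancer lines from MMTV-PyMT mice, in which a mammary tumour virus promoter drives the polyoma middle T oncogene, and neither was treated. The Slug library used a rabbit monoclonal antibody to Slug, whereas the Snail library was made with an antibody that, by its label, recognises both proteins. Each factor has 1 ChIP library, so factor, antibody and cell line cannot be told apart in any comparison below, and no test between them was possible. The files hold peaks and no expression, so the epithelial and mesenchymal states named by the labels could not be checked against marker genes.

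Kruppel-like factors are DNA-binding proteins with C-terminal zinc fingers that recognise CACCC and GC-rich boxes, many of them in promoters. In epithelia Klf4 promotes differentiation and growth arrest, while Klf5 is known for supporting the proliferation of progenitor and basal cells. Klf3 and Klf8 are repressors that recruit the corepressor CtBP, and Klf8 is known as an inducer of epithelial-mesenchymal transition (EMT) in breast cancer cells. Klf10 is an early gene of TGF-beta signalling, Klf6 a growth-restraining factor of many tissues, and Klf2 a factor of quiescent T cells and of endothelium. Slug and Snail are themselves zinc finger repressors, which bind the E-box CAGGTG.

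Most of these loci had a Snail peak over the gene start and no Slug peak there. Of the 7 genes, 6 had a Snail peak with its midpoint within 1 kb of the start site (Klf2, Klf3, Klf4, Klf5, Klf6 and Klf10), where the same rule found such a peak at 50.7% of all protein-coding genes. A Slug peak met this rule at 2 of the 7, Klf5 and Klf10, against 11.0% of protein-coding genes. Start sites came from RefSeq for 5 of the genes, and either gene end stood in for the start of Klf5 and Klf10, which gives a peak 2 places to meet the rule. Both Slug cases are of this kind, while among the 5 genes with a start site Snail peaks lay at the start of Klf2, Klf3, Klf4 and Klf6. Klf8 had neither factor within 1 kb of a start site.

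**Figure D1:**
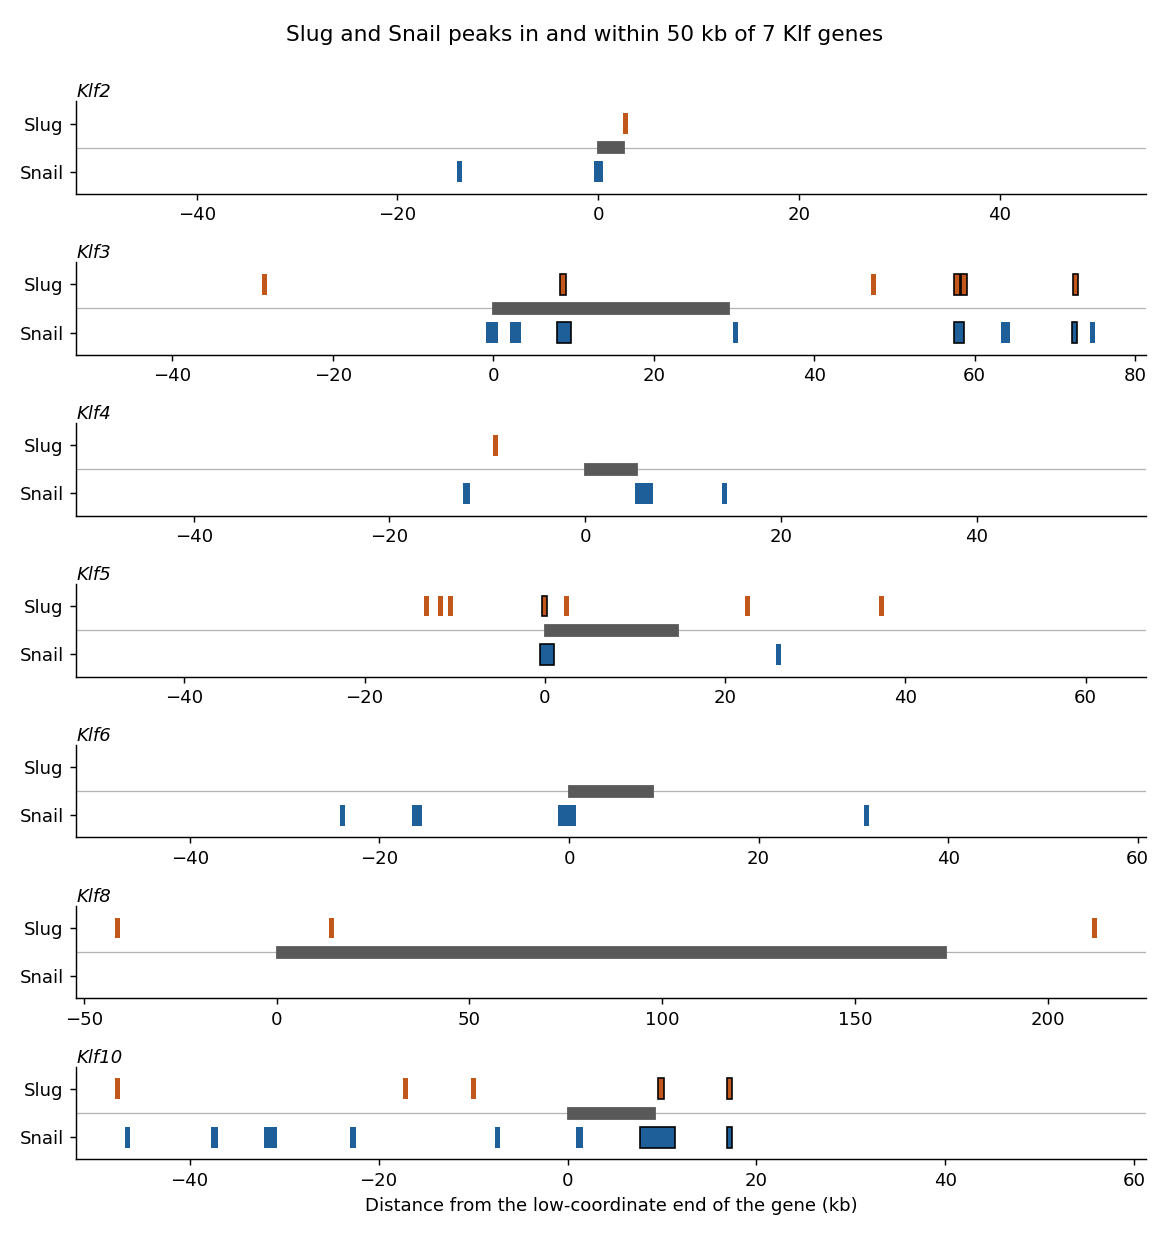
Positions of Slug (orange) and Snail (blue) peaks around each gene (grey bar), in kb from its low-coordinate end, drawn to scale except that very narrow peaks are widened to 0.5% of the panel's gene and flanks. Black outlines mark peaks that overlap a peak of the other list: Klf6 has no Slug peak and Klf8 no Snail peak, and overlapping pairs occur at Klf3, Klf5 and Klf10.

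Promoter sequences are shown for the genes with a RefSeq start site because the strongest Snail peaks lie on them. Each runs 5′ to 3′ along the gene from 250 bases before the start site to 50 bases from it on (RefSeq, GRCm38.p6, the assembly of mm10), with every E-box of the form CANNTG in capitals. The Snail peak covered all 300 bases at Klf2, Klf3, Klf4 and Klf6, which is 4 of the 6 windows of these genes. Of all 32851 promoter windows in the table, non-coding genes included, 30.0% were so covered. No Slug peak touched any of the 6. Klf8 has a window at each of 2 start sites, both inside its RefSeq span. The window of the more upstream of these is shown for contrast, since no peak covers it.
Klf2, chr8:72318812-72319111, plus strand: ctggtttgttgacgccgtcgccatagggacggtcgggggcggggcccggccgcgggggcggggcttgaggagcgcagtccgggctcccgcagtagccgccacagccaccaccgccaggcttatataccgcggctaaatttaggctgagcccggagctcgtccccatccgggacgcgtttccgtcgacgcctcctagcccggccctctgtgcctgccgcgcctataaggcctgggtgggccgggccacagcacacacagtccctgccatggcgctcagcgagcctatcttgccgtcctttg
Klf3, chr5:64803271-64803570, plus strand: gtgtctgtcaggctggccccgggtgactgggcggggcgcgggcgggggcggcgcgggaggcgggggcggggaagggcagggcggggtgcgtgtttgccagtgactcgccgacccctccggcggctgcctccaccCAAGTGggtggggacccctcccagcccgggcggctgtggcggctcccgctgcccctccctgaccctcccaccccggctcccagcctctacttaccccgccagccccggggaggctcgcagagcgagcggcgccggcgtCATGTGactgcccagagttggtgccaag
Klf4, chr4:55532426-55532725, minus strand: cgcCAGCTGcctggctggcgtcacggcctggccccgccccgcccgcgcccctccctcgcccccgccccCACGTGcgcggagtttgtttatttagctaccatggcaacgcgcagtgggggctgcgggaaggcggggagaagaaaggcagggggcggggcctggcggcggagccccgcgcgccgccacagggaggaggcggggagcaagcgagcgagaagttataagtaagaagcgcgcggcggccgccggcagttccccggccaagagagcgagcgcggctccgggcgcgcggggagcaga
Klf6, chr13:5861239-5861538, plus strand: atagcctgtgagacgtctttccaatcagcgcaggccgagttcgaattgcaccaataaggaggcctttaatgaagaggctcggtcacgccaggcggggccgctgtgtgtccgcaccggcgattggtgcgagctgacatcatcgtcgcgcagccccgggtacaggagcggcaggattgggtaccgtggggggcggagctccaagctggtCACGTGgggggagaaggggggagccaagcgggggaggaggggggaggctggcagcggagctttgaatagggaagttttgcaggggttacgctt
Klf8, chrX:153237498-153237797, plus strand: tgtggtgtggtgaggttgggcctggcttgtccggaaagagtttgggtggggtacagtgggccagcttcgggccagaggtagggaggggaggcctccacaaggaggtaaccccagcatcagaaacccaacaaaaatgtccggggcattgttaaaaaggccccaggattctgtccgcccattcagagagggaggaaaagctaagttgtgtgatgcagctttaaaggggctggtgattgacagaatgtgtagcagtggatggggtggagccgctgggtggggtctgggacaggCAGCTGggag

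The E-box CAGGTG, searched on both strands and itself a case of CANNTG, was in none of the 6 windows. Of all promoter windows of this length 20.2% hold it, and 6 windows are too few to tell none from that share. No peak covers either of the Klf8 windows among them. An E-box of the wider form CANNTG was in 5 of the 6, against 72.3% of all. With the start site at position 0, Klf3 had CAAGTG at -116 and CATGTG at 22, Klf4 had CAGCTG at -247 and CACGTG at -182, and Klf6 had CACGTG at -43. Klf2 had no E-box in these letters at all. GC boxes (GGGCGG, both strands) were in all 6 windows, against 35.7% of all promoters. There were 6 matches at Klf3, 4 at Klf4, 2 at Klf2, and 1 at Klf6 and in each Klf8 window. The CACCC box of the Kruppel-like factors themselves (CCACCC, both strands) was in 4 of the 6, against 31.5% of all. There were 3 matches at Klf3, 3 in each Klf8 window, 1 at Klf2 and none at Klf4 or Klf6. The 6 windows belong to 5 genes, and 2 of the 4 with a CACCC box are of Klf8. The 4 windows under a Snail peak were rich in G and C, at 76.7% for Klf3, 74.3% for Klf4, 69.3% for Klf2 and 63.0% for Klf6. The Klf8 windows, which no peak covers, had 57.3% and 60.0%. Over all windows the median was 52.7% and the upper quartile 61.7%, so the Klf8 windows were also above the median. The windows of all promoters include those of long non-coding RNA genes, whereas these 6 belong to protein-coding genes. None of these shares was tested. These matches describe the letters of a 300-base window, and the Snail peaks run beyond it.

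The Snail peaks at gene starts were also the highest-scoring Snail peaks of their loci. The score is the peak caller's own value for each peak and is compared only within its list. At all 6 genes the peak at the start had the highest Snail score of the window. This held for 51.4% of the 11098 protein-coding genes with a Snail peak at the start, whatever other genes their windows held. The only other protein-coding start in the windows of the 6 genes was that of Gm38457 at Klf3, so the shares are not like for like. The lead also depends on the flank, since within 100 kb of Klf2 a Snail peak at the Eps15l1 start scored 1359. Scores of the 6 start peaks ran from 433 to 1124. The other 21 Snail peaks of the windows ran from 51.9 to 568 with a median of 104. The ranges overlap only through Klf3, whose start peak scored less than the distal Snail peaks of Klf4 (568) and Klf6 (490).

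Among these 6 starts the Klf2 and Klf6 peaks scored alike, at 1124 and 1123, each above 91.8% of the Snail list. Klf5 followed at 1075, Klf10 at 1025 and Klf4 at 835. The Klf3 peak was lowest at 433, below the median of 633 of the 11087 Snail peaks at protein-coding starts and above 34.8% of them. The other 5 lay in the upper part of those start peaks, from 64.6% of them below Klf4 to 81.3% below Klf2. No peak has a replicate, so the small steps between neighbours in this order carry no error estimate. The widths did not follow the same order, with 949 bp at Klf2, 1490 bp at Klf3, 1586 bp at Klf5, 1861 bp at Klf4, 1955 bp at Klf6 and 3656 bp at Klf10. The Klf10 peak was wider than 99.3% of all Snail peaks.

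**Figure D2:**
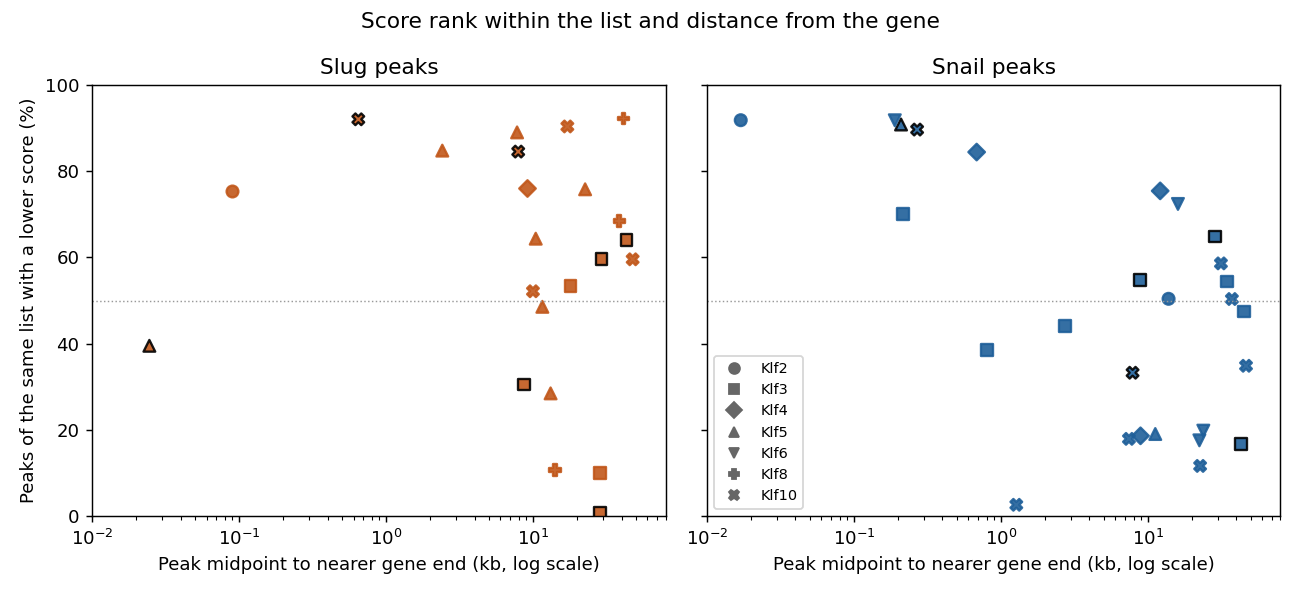
Share of peaks in the same list with a lower score (percent, vertical) against the distance from the peak midpoint to the nearer gene end (kb, log scale), for Slug peaks on the left and Snail peaks on the right. Black outlines mark peaks that overlap the other list, and the dotted line marks 50%: the 6 Snail peaks at gene starts sit between 70.0% and 91.8%, while Slug peaks of high rank lie at many distances.

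For Slug only 2 peaks lay at a gene start, too few to say whether start peaks lead by score. That of Klf10 had the highest Slug score of its window and that of Klf5 did not. Of the 23 Slug peaks, 5 lay in or across a gene and 13 were more than 10 kb from it. Of the 27 Snail peaks 9 and 14 did so, a similar distal part. Flanks of 50 kb place most of each window that far out, except at Klf8, and the shares over all genes were not computed. The Slug scores ran from 50.2 to 306 with a median of 109, beside 81.1 for the whole Slug list. Of the 23, 12 scored at least 100, which 39.7% of the whole list did. The highest-scoring was 41.1 kb from Klf8, inside the neighbouring gene Rragb (a GTPase of amino acid sensing), and the next, at 304, was at Klf10. These Slug peaks spanned 127 to 479 bp and the Snail peaks 343 to 3656 bp, a difference that the whole lists share, with median widths of 206 and 722 bp.

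**Figure D3:**
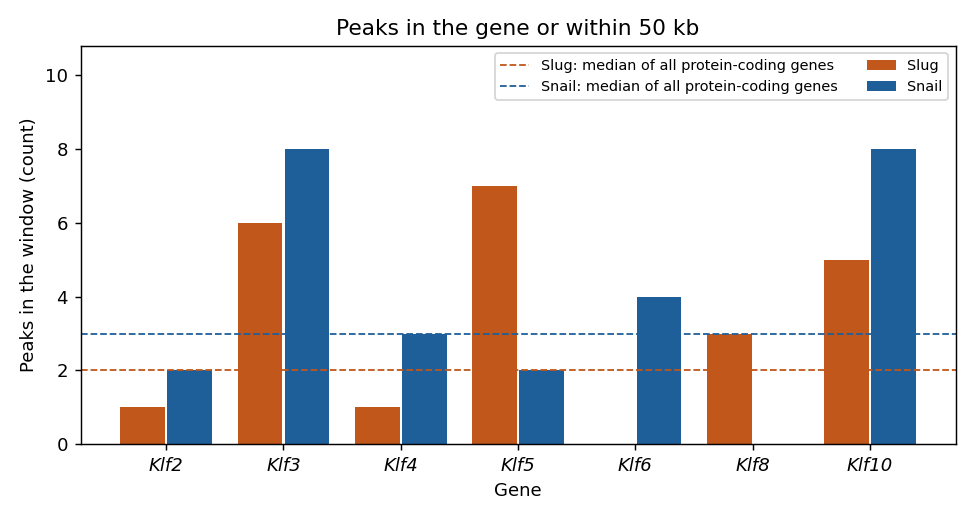
Number of Slug (orange) and Snail (blue) peaks in each gene or within 50 kb, with dashed lines at the median of all protein-coding genes, 2 for Slug and 3 for Snail. Klf5 and Klf8 have more Slug than Snail peaks, as do 35.5% of protein-coding genes, and the other 5 genes more Snail than Slug peaks, as do 43.5%, an order that turns for Klf3 and Klf4 with 100 kb flanks and for Klf10 among the higher-scoring peaks of each list.

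A Slug peak occurred in the window of 6 of the 7 genes and a Snail peak in that of 6, against 83.6% and 78.3% of protein-coding genes. Both were present at 5 genes, against 71.8% of protein-coding genes, so these shares were near the background. Klf6 had Snail peaks alone and Klf8 Slug peaks alone. With flanks of 100 kb the Slug minus Snail count became 1 for Klf3 and 2 for Klf4, and among peaks at or above the median score of their list it became 2 for Klf10.

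Klf4, the differentiation factor, spans 55527137 to 55532475 of chromosome 4 on the minus strand. Its Snail peak at 55532230 to 55534090 crossed the start, with its midpoint 0.685 kb upstream, and also covered the start of Gm12506, a long non-coding RNA gene that begins 0.235 kb away on the opposite strand. Reads from the 2 promoters cannot be told apart in a single peak. A second Snail peak (55514628 to 55515357, score 568) was 11.8 kb beyond the low-coordinate end, and the last, at 55541188 to 55541610, scored 67.5 inside Gm12506 and Gm34343. The only Slug peak, at 55517894 to 55518113 with a score of 154, was 9.02 kb beyond the low-coordinate end. It lay 2.54 kb from the nearest Snail peak and overlapped none, so both factors had a site downstream of Klf4 but not the same site.

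Klf5, the proliferation factor, had the most Slug peaks of the 7 genes. It spans 99298691 to 99313412 of chromosome 14 and had 7 Slug and 2 Snail peaks. At least 7 Slug peaks were found for 9.22% of protein-coding genes, and 4.88% had at least 5 more Slug than Snail peaks, as Klf5 did. These limits were chosen after the values of Klf5 were seen. Its window was 115 kb long, close to the median of 117 kb over protein-coding genes.

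The Slug peaks of Klf5 fell into an outer low-coordinate group, the gene itself and an outer high-coordinate pair. The outer group on the low side held 3 peaks between 99285465 and 99288419, with scores of 60.8, 79.1 and 110. At the low-coordinate end a Slug peak scoring 69.1, 99298575 to 99298758, was wholly inside the Snail peak of 1586 bp at 99298108 to 99299693. The higher Slug scores were away from this end: 211 at 99300989 to 99301216 inside the gene, 258 at 99321049 to 99321340, 7.64 kb beyond the high-coordinate end, and 153 at 99335870 to 99336155. None of these 3 overlapped a Snail peak, as is usual in the whole Slug list, where 12.1% did. The second Snail peak of Klf5 scored 68.0, 11.0 kb beyond the high-coordinate end and 3.07 kb from the nearest Slug peak. The strongest Slug and the strongest Snail site of Klf5 were therefore at different places.

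Klf6 and Klf10, the genes linked to growth restraint and TGF-beta, differed in their Slug peaks. Klf6 spans 5861489 to 5870393 of chromosome 13 and had 4 Snail peaks and no Slug peak, a combination of no Slug and at least 4 Snail peaks found for 1.93% of protein-coding genes (a limit set after seeing Klf6). Its start was covered by the Snail peak at 5860322 to 5862276. The next in score (490), at 5844927 to 5845957, lay 15.5 kb upstream, and those 23.6 kb upstream and 22.2 kb beyond the high-coordinate end scored 68.9 and 66.1. The nearest Slug peak was 95.1 kb from the gene, at 5766109 to 5766415, with a score of 109. With no Slug signal track used here, a site below the caller's limit (a score of 50) at Klf6 cannot be told from no site.

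Klf10 spans 38291464 to 38300711 of chromosome 15 and had 5 Slug and 8 Snail peaks. Its high-coordinate end held the widest Snail peak of the 7 loci, 38299153 to 38302808, and wholly inside it a Slug peak at 38301119 to 38301597 with a score of 304, above 92.0% of the Slug list. At Klf5, the other gene with both factors at the same end, the Slug peak scored above 39.5% of its list. The Snail peak also overlapped the low-coordinate part of Gm35248, a long non-coding RNA gene that overlaps this end of Klf10.

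A second shared site of Klf10 lay 7.75 kb beyond the same end, inside Gm35248. There the Slug peak at 38308456 to 38308811 scored 210 and the Snail peak at 38308384 to 38308803 scored 91.2, and the pair shared 348 bp, which was 97.8% of the Slug and 82.9% of the Snail peak. Their midpoints were 40 bp apart, the closest of all pairs in these windows. The other 3 Slug peaks were on the low-coordinate side, the highest at 38274206 to 38274505 with a score of 276. A Slug peak 47.5 kb and a Snail peak 46.4 kb from the gene on this side were 0.665 kb apart without overlapping, and both were nearer to the gene Odf1, as was a Snail peak 37.0 kb out. The 6 Snail peaks of Klf10 outside the shared sites scored from 51.9 to 220, the lowest inside the gene.

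Klf3 and Klf8, the repressors that work through CtBP, had 8 Snail peaks and none, respectively. Klf3 spans 64803521 to 64832901 of chromosome 5 and had 6 Slug peaks beside them, the largest summed count of the 7 genes. At least 8 Snail peaks were found for 11.5% of protein-coding genes. The Slug peaks of Klf3 ran from 50.2 to 109, so that 1 of the 6 scored at least 100, and Snail peaks from 65.2 to 433. The Snail peak at the start, 64802561 to 64804050, also overlapped Gm38457, a protein-coding gene model on the opposite strand that spans the Klf3 start and whose own start lies inside Klf3.

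Klf3 had more overlapping peaks than any other of the 7 genes, with 4 of its 6 Slug and 3 of its 8 Snail peaks. Inside the gene the Slug peak at 64812098 to 64812300 (score 62.0) fell within the Snail peak at 64811497 to 64813159 (score 183). A Snail peak 28.0 kb beyond the high-coordinate end, 64860920 to 64862150 with a score of 315, touched 2 Slug peaks with scores of 50.2 and 98.4. Further out, 43.0 kb beyond the gene, the Slug peak at 64875913 to 64876187 scored 109 and lay within a Snail peak of 407 bp that scored 65.2. The highest Slug score of the locus was thus at a shared site, and the lowest also.

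Klf8 spans 153225339 to 153398925 of chromosome X and was counted with the same 50 kb flanks as the other genes. At 174 kb it is the longest of the 7 genes, and its window of 274 kb held 3 Slug peaks and no Snail peak. At least 3 Slug peaks without any Snail peak were found for 3.54% of protein-coding genes, a limit set after seeing Klf8. Inside the gene there was 1 Slug peak, 153239410 to 153239616, with a score of 53.1 where the list begins at 50. Its midpoint was 1.77 kb downstream of the first of the 2 RefSeq start sites used and 14.2 kb from the low-coordinate end of the gene, which lies further upstream. The peak inside Rragb, 153183946 to 153184229, scored 306 and was nearer to that gene, and the peak at 153437476 to 153437706 scored 123 and lay 38.6 kb beyond the high-coordinate end. Per 100 kb of window Klf8 had 1.097 Slug peaks, against a median of 1.81 over protein-coding genes, and the nearest Snail peak was 85.0 kb from the gene, with a score of 97.7. For Klf5 and Klf3 the Slug figures per 100 kb were 6.10 and 4.64.

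Klf2, the quiescence factor, spans 72319062 to 72321654 of chromosome 8, and peaks of the 2 factors sat at its opposite ends. The Snail peak at 72318605 to 72319553 was centred 0.017 kb from the start site. The only Slug peak, at 72321606 to 72321880 with a score of 151, crossed the other end, 2.05 kb from that Snail peak. A second Snail peak, with a score of 153, lay 13.7 kb upstream and overlapped the pseudogene Gm10282. With 3 peaks in all, Klf2 and Klf8 had the fewest of the 7 genes.

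Sites shared by both lists (an overlap of at least 1 bp) were found at 3 of the 7 genes, Klf3, Klf5 and Klf10, against 35.0% of protein-coding genes. Of the 23 Slug peaks 7 overlapped a Snail peak, a share of 30.4% (95% exact Clopper-Pearson interval 13.2 to 52.9, for counting error only), beside 12.1% of the whole Slug list. Of the 27 Snail peaks 6 overlapped a Slug peak, or 22.2% (8.62 to 42.3), beside 16.6% of the whole list. Without Klf3, which held 4 of the 7 pairs, the shares were 17.6% (3.80 to 43.4) of 17 Slug and 15.8% (3.38 to 39.6) of 19 Snail peaks. In 5 of the 7 pairs the Slug peak lay wholly inside the wider Snail peak. The whole lists have median widths of 206 bp for Slug and 722 bp for Snail, and the share of such pairs over them was not computed. The Slug share fell to 8.33% among peaks scoring at least 100 in both lists, and the Snail share to 5.88%, since the Klf10 end alone was then shared. The whole lists, restricted likewise, gave 10.1% for Slug and 9.01% for Snail. With a reciprocal overlap of 50% the shares were 8.70% of the Slug and 7.41% of the Snail peaks, beside 3.73% and 5.47% of the whole lists.

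The other genes of the family were 10 Kruppel-like and 9 Sp factors, which bind similar GC-rich boxes. Of these 19, 17 had a Slug and 17 a Snail peak in the window, against 83.6% and 78.3% of protein-coding genes. Within 1 kb of a start site 3 had Slug and 10 had Snail, against 11.0% and 50.7% of protein-coding genes. A shared site was in the window of 9 genes, against 35.0%. With 19 genes these counts are not set apart from the background. The median gene had 3 Slug and 5 Snail peaks, where the 7 genes above had 3 and 3 and all protein-coding genes 2 and 3. Snail peaks outnumbered Slug peaks at 13 of the 19, which were 8 of the 9 Sp genes and 5 of the 10 Kruppel-like genes. Another 4 of those 10 had more Slug peaks. Of protein-coding genes 43.5% had more Snail and 35.5% more Slug peaks. Sp1 and Sp7 lie close together on chromosome 15 and had equal counts and equal highest scores. The windows of Sp2 and Sp6 on chromosome 11 also overlap, so the 9 Sp genes are not separate loci. Klf6 had the same counts as Sp8, with 4 Snail and no Slug peaks.

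**Figure D4:**
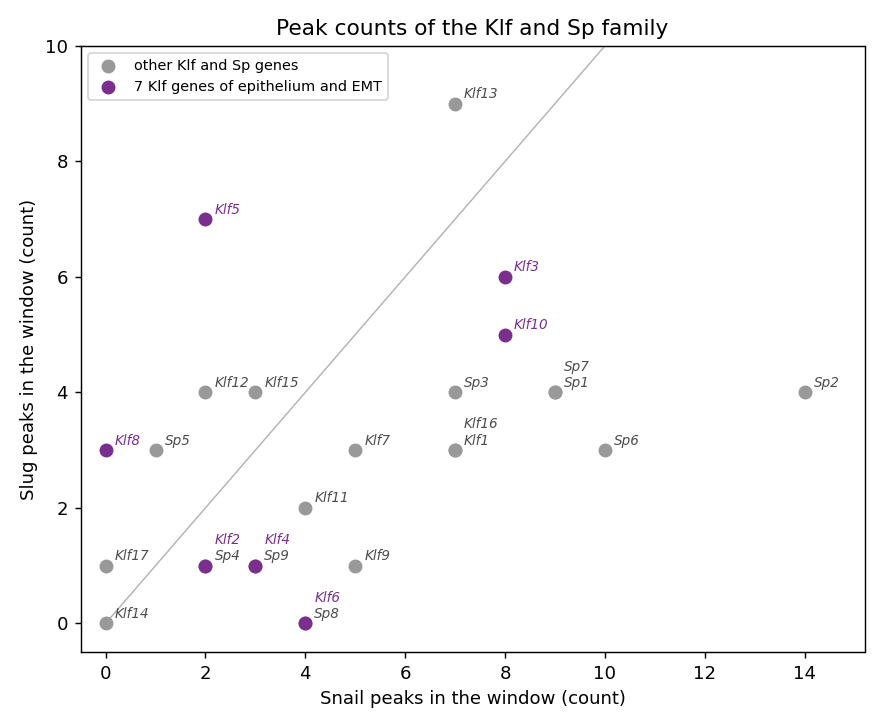
Slug peaks (vertical) against Snail peaks (horizontal) in the gene or within 50 kb for the 7 genes (purple) and 19 other Klf and Sp genes (grey), with a line of equal counts. Klf5 and Klf8 lie above the line with 5 other genes, and Klf2, Klf4 and Klf6 share their points with Sp4, Sp9 and Sp8.

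By score the leading Slug peaks among the other genes were near Klf11 and Klf13. Klf11, a TGF-beta-inducible relative of Klf10, had a Slug peak with a score of 1307 at 24676579 to 24677183 of chromosome 12, but 13.8 kb outside the gene, inside Cys1, and overlapping a Snail peak. Klf13 had an unshared Slug peak with a score of 543 inside the gene, at 63927384 to 63927666 of chromosome 7, and more Slug peaks (9) than any of the 7 genes. The leading Snail peaks were at Sp3, with a score of 1583 across a gene end at 72978855 to 72981321 of chromosome 2, and near Klf1, an erythroid factor gene, with 1334 but 44.6 kb from the gene and inside Farsa. No Slug score at the 7 genes reached that of the Klf13 peak, and no Snail score that of the Sp3 peak.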

How the data were processed

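ChIP-seq libraries of Slug in pBl.1G and Snail in pBl.3G were used, 1 each. The 2 input libraries were not analysed here. Each deposited file is a peak list with a position and a score per peak, made by the authors. Per the submitters' processing notes, the tools were Bowtie and MACS 1.4.2 and the build mm10. The peak calling settings and the control library are not given in the sources. The deposited score is by MACS convention a transformed p-value, which the files do not state, and it depends on library depth, which is unknown here. Scores were therefore ranked within a list only.

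Starts were converted to 1-based positions. Genes, promoter sequences and start sites came from RefSeq tables for GRCm38.p6, and 79.9% of 21887 protein-coding genes had a start site there; either gene end stood in for the rest. Klf5 and Klf10 are not in the promoter table. Motifs were searched in promoter windows and not in peaks, because no genome was used. A peak belonged to a window, or to a shared site, on 1 bp of overlap. Counting code was tested on simulated peaks. Python 3.11.15, numpy 2.4.6, pandas 2.3.3, scipy 1.17.1 and matplotlib 3.10.9 were used. The genes, lists and rules were chosen with earlier results of these data known. Named were the 7 genes, the 2 other Klf or Sp genes leading each list by score, and genes under or nearer to a described peak. Sp genes with counts equal to another gene or with overlapping windows were named after their values were seen. Alternatives were other flanks, score limits, overlap rules and gene assignments.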

Additional observations from a re-analysis of the deposited data

How the results depend on the processing

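The 13 values recomputed under 11 alternatives gave 89 values, of which 14 moved beyond the limit set for them (1.5 times for a count, the 95% interval of the reported value for a share or a count difference) and 3 reversed. The other 72 stayed inside limits that are wide at these counts, and among them the Slug minus Snail count came to 0 for Klf2 with 10 kb flanks and for Klf10 at scores of at least 100, where that of Klf3 was -6. Flanks of 10 kb left 10 Slug and 13 Snail peaks, and flanks of 100 kb gave 42 Slug peaks and turned the Slug minus Snail count of Klf3 to 1 and of Klf4 to 2. Peaks scoring at least 100 left 12 Slug and 17 Snail peaks, shared shares of 8.33% for Slug and 5.88% for Snail, and 1 gene with Slug at the start. Keeping peaks at or above the median score of their list left 14 Snail peaks, a Slug shared share of 12.5%, 1 gene with Slug at the start, and turned the count difference of Klf10 to 2. Reciprocal overlap of 50% took the shared shares to 8.70% and 7.41%. Within 5 kb of a start 4 genes had a Slug peak. Snail at the start stayed at 6 genes in each alternative run for it. Assignment to the nearest protein-coding gene, which gives the Klf3 start peak to Gm38457, was not run for this count. The count difference of Klf5 kept its sign (2 to 5), as did those of Klf6 (-4 to -1) and Klf8 (1 to 3). Counting Klf8 by its gene span alone was chosen after seeing the data. No paired analysis was possible because each factor has 1 library, for which reason no replicate could be left out either. Depth is unknown, so a site missing from a list may lie under the caller's limit.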

Other observations

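Beyond the 50 kb flanks, between 50 and 100 kb from the 7 genes, there were 19 more Slug and 13 more Snail peaks. Klf4 gained 4 Slug peaks there, the highest at 85.9, and no Snail peak. Klf3 likewise gained 3 Slug peaks, the highest at 294 and 98.2 kb from the gene, and no Snail peak. The strongest Snail peaks of this outer zone lay at other genes: a peak with a score of 1359 at 72420680 to 72422207 of chromosome 8 covered the start of Eps15l1, an endocytic adaptor gene, 99.03 kb from Klf2, and a peak with a score of 999 lay in Ubqln2, 99.2 kb from Klf8. Klf10 had a Slug peak with a score of 258 in Gm41307 and a Snail peak scoring 521 over no annotated gene, 90.6 and 83.1 kb beyond its high-coordinate end.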
